A study of Mus musculus with 8 samples.

Results

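Chil3 encodes a chitinase-like protein, also called Ym1, and is 1 gene of the 21755 named in the count tables. It was chosen by an earlier reading of these same counts, which described a steady rise of Chil3 in diabetic macrophages, so its levels are given here as a description only. The data went against that description. In the diabetic group, the macrophage-like cells held 374 CPM of Chil3 (CPM being UMIs of the gene per 1000000 UMIs of those cells, where a UMI marks 1 captured RNA molecule) on day 1, 680 on day 3, 60.2 on day 5 and 302 on day 7. The level of day 5 was 11.3-fold lower than that of day 3, and the level of day 7 was below that of day 1. The order of days 1 and 7 turned with called doublets removed (287 and 297 CPM). What the counts did show was a higher level in the diabetic than in the control library on each of the 4 days in monocyte-like, macrophage-like and dendritic-like cells, and on 3 of the 4 days in neutrophil-like cells. In macrophage-like and neutrophil-like cells on day 1, in control neutrophil-like cells on day 3 and in dendritic-like cells in 7 of 8 libraries, the CPM did not exceed that of lymphocyte-like cells beyond counting error. On day 1 this turns on few lymphocyte-like cells (1 held 66 of 108 Chil3 UMIs in the control and 1 held 68 of 331 in the diabetic library), and by the share of cells with a UMI after thinning (each cell drawn down to 1000 UMIs) the macrophage-like and neutrophil-like cells stood higher, with intervals that part only for control macrophage-like cells. The macrophage-like ratio of day 1 turned to -0.35 (log2) after thinning. Lymphocyte-like cells, which should lack Chil3, were themselves at 2.82, 7.87, 1.50 and 4.82 times the control level in the diabetic libraries of days 1, 3, 5 and 7, within counting error on day 5.

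The protein made from Chil3 is secreted and has lost the activity of a chitinase, although it keeps the fold of that enzyme family. In mice it is best known as a marker of macrophages exposed to IL-4 and IL-13, which act through a receptor that holds Il4ra and through the transcription factor Stat6. It is also made by myeloid progenitors of the bone marrow and by Ly6c2-high inflammatory monocytes, and it is abundant in alveolar macrophages. Chil4, its neighbour and closest relative, is made by the epithelium of the airways and stomach.

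Single CD45+ cells were taken from full-thickness skin wounds on the back of male C57BL/6J mice. The diabetic group had received streptozotocin (STZ), a toxin of pancreatic beta cells, at 120 mg/kg when 4 weeks old, and the control group had wounds with no diabetes. Both groups were sampled 1, 3, 5 and 7 days after wounding, and the wounds of 5 mice were pooled into 1 library for each group and day. The wounds with no diabetes are the only reference, and the animals of a pool cannot be told apart. There is thus 1 library per condition, no replicate of any level, and each interval below covers counting error only.

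The filter removed 28.5% of the barcodes of the control library of day 5 and between 1.00% and 10.6% of the others. The 8 libraries held between 19236522 and 33842509 UMIs over all barcodes, and after filtering between 18814802 and 32956113 UMIs in between 3273 and 5440 cells. Ptprc, the gene of CD45, had a UMI in 70.5% to 86.1% of the cells of a library. Clustering without Chil3 gave 17 clusters, which were named from marker lists that leave Chil3 out. They came to 13820 neutrophil-like, 6371 macrophage-like, 4690 monocyte-like and 2772 dendritic-like cells, and 3001 lymphocyte-like cells, which are the T cell-like and NK cell-like clusters together. A cluster of 3961 cells led by Gm26917 and Malat1 stayed unnamed. The 11 macrophage markers summed to between 16227 and 26216 CPM in macrophage-like cells, and to at most 11539 CPM in monocyte-, neutrophil-, dendritic- or lymphocyte-like cells. Lymphocytes should lack Chil3, so their level stands beside each class as a measure of the Chil3 RNA that reaches cells not making it.

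Chil3 lies on the minus strand of chromosome 3 (GRCm38, chr3:106147554-106167564) in 11 exons, and Chil4 lies 33925 bases away on the same strand (chr3:106201490-106219507). Since the 2 transcripts are 94.3% identical (88 of 1540 aligned positions differ), reads could in principle be shared between them. Over the last 300 bases of the Chil3 transcript, the end that 3′ counting reads, 89.4% of the aligned positions were identical. Few UMIs went to Chil4: it had between 0 and 7 in a library, against between 641 and 28898 for Chil3, so the counts below are Chil3 counts as far as the authors' mapping tells the pair apart.

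The windows around the start of both genes are shown because they are the control regions of the pair that is so unequal in these cells. Each runs from 250 bases before to 50 bases after the gene start of RefSeq (build GRCm38.p6), 5′ to 3′ on the minus strand, at chr3:106167515-106167814 for Chil3 and chr3:106219430-106219729 for Chil4. Capitals mark the letters of a TATA box (TATAAA), a core that PU.1 can bind (AGGAAGT, here read from the other strand) and a site with STAT spacing (TTCNNNGAA).
Chil3: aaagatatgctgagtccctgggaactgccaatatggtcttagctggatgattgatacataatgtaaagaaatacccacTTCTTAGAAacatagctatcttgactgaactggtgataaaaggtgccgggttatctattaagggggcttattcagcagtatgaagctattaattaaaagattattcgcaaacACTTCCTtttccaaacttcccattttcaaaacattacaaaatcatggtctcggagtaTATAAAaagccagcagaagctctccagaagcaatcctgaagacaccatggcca
Chil4: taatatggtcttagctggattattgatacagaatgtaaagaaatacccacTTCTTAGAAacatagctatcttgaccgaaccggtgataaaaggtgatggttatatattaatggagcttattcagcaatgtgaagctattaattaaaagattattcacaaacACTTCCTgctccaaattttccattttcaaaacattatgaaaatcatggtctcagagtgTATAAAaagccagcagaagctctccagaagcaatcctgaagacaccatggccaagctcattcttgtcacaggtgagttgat
The windows overlapped over 273 aligned positions, of which 91.9% were identical, and the same 3 motifs stood in both. TATAAA begins at -31 from the RefSeq start of Chil4 but at -3 from that of Chil3, where it runs past the start. For Chil3 the RefSeq start is that of the gene coordinates given above (106167564). For Chil4 it lies downstream of theirs (106219507), so the difference in position depends on which annotated start is taken. Of all 32851 promoter windows in the table, searched on both strands, 13.6% hold TATAAA, 9.35% the PU.1 core and 8.30% the STAT spacing. The wider spacing that STAT6 prefers, TTC and GAA with 4 bases between them, is in 6.95% of all windows, and the C/EBP core TTGCNNCAA is in 2.08%. Neither of these is in the 2 windows, and the match of a motif is a description of sequence, not a bound site.

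Monocyte-like cells had the highest level of Chil3 among the named classes in each of the 8 libraries. In the diabetic group their level was 2532 CPM on day 1, 2581 on day 3, 326 on day 5 and 385 on day 7. In the control group it was 1479, 390, 119 and 73.2 CPM on the same days. By CPM the groups took different courses. The control level was 3.79-fold lower on day 3 than on day 1, whereas the diabetic levels of these days differed by 1.02-fold. The diabetic level of day 5 was 7.91-fold lower than that of day 3. The median cell, in contrast, fell from day 1 to day 3 in both groups. It went from 13.8 to 4.58 Chil3 UMIs per 10000 UMIs in the diabetic and from 4.37 to 0 in the control group. The diabetic level was 1.71 times the control level on day 1, 6.62 times on day 3, 2.73 times on day 5 and 5.26 times on day 7. On the log2 scale these ratios were 0.78 (95% interval 0.74 to 0.81), 2.73 (2.65 to 2.80), 1.45 (1.20 to 1.72) and 2.39 (1.93 to 2.90). Over the alternatives the ratio of day 5 ran from 0.85 to 2.03 and that of day 7 from 1.02 to 2.53. The ratio of day 7 rests on 39 Chil3 UMIs in 53 control cells.

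The level in monocyte-like cells was 4.47 to 24.5 times that of the lymphocyte-like cells of the same library, so it stood above the lymphocyte level throughout. The 10 neutrophil markers summed to 3764, 2837, 1970 and 1369 CPM in diabetic and 3640, 1870, 671 and 1600 CPM in control monocyte-like cells on days 1, 3, 5 and 7. They were thus higher in the diabetic library on days 1, 3 and 5, and their part in the Chil3 difference was not tested. The share of cells with a Chil3 UMI gave the same order between groups. After each cell was thinned to 1000 UMIs, 65.3%, 46.0%, 17.1% and 20.6% of the diabetic monocyte-like cells had one on days 1, 3, 5 and 7. In the control group 47.0%, 23.5%, 9.68% and 11.3% had one. In the lymphocyte-like cells the thinned share was 17.1%, 15.4%, 0.365% and 4.79% in the diabetic group. It was 7.04%, 2.46% and 0.314% in the control group on days 1, 3 and 7, and 0 of 155 cells on day 5, which allows a share of up to 1.94% (3 counts of the total). Without thinning, 84.5%, 88.0%, 43.7% and 56.7% of diabetic and 73.3%, 49.3%, 28.0% and 24.5% of control monocyte-like cells had a UMI. The median monocyte-like cell had between 6682 and 11943 UMIs in a library, and the median lymphocyte-like cell between 3344 and 4647.

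Chil3 was spread unevenly among monocyte-like cells. In the diabetic group, the 5% of cells with the most Chil3 UMIs held 27.2% of those UMIs on day 1 and 52.2% on day 3, with almost the same CPM on both days. The highest single cell had 346 Chil3 UMIs, in the diabetic library of day 3. In the control group, the highest 5% held between 33.2% and 65.2% of the UMIs.

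**Figure D1:**
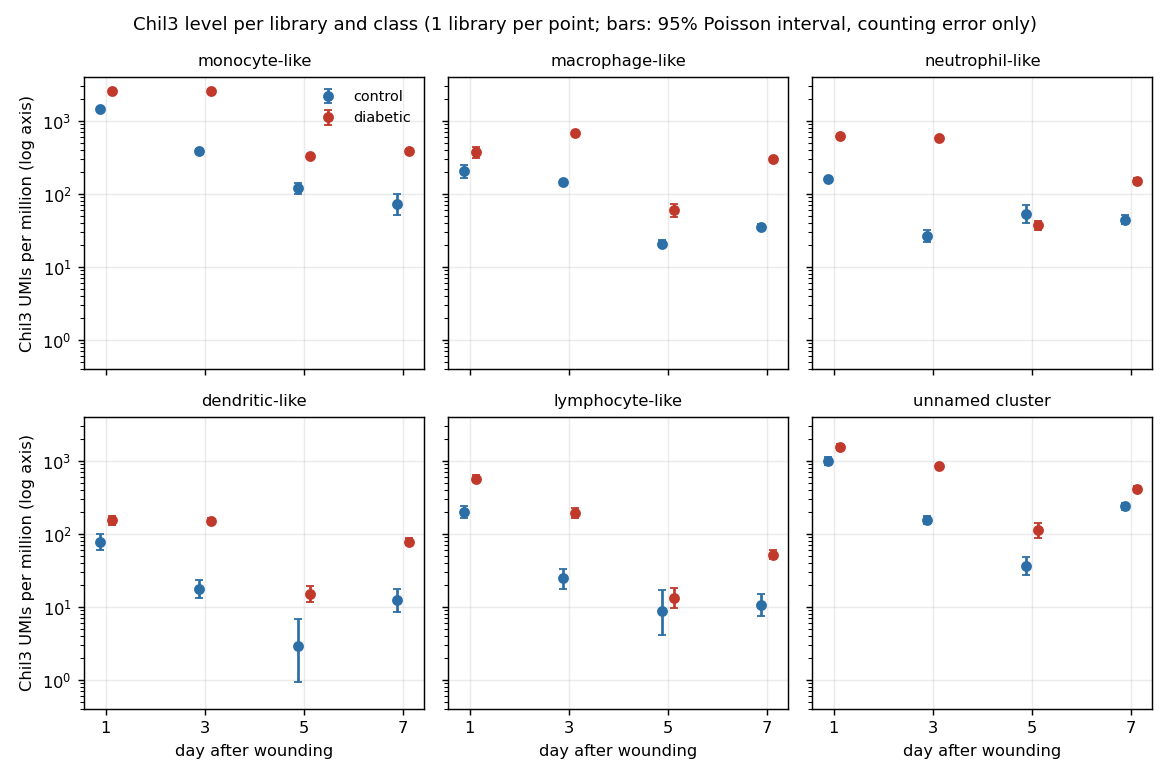
Chil3 CPM (log axis) against the day after wounding in 6 sets of cells, with 1 point per library, control in blue and diabetic in red, and bars for the 95% Poisson interval. Monocyte-like cells stand highest of the named classes, the diabetic points lie above the control points everywhere except in neutrophil-like cells on day 5 (37.1 against 53.6 CPM), and lymphocyte-like cells carry a level that differs between the groups too.

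The monocyte-like class held a pair of clusters, and Chil3, which was left out of the clustering, differed between them. Cluster 9 was led by Vcan, Plac8 and Ly6c2, genes of classical inflammatory monocytes. Cluster 5 was led by Ppbp, Serpinb2 and Pdpn. In each of the 8 libraries cluster 9 had the higher level. It held 3489, 2942, 453 and 612 CPM in the diabetic group on days 1, 3, 5 and 7, and 2670, 525, 204 and 99.5 CPM in the control group, where day 7 rests on 9 cells. Cluster 5 held 1879, 2375, 151 and 339 CPM in the diabetic group and 1069, 149, 71.0 and 64.6 CPM in the control group.

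The makeup of the class also differed between the groups. On day 3 cluster 9 held most of the control cells (322 of 495) and cluster 5 most of the diabetic cells (485 of 740), while on day 5 the order was opposite, with 64 of 93 control cells in cluster 5 and 341 of 593 diabetic cells in cluster 9. Within clusters the CPM of the diabetic library was still the higher one. In cluster 9 the log2 ratio of diabetic over control was 0.39 (0.34 to 0.43) on day 1, 2.49 (2.40 to 2.57) on day 3 and 1.15 (0.83 to 1.49) on day 5. In cluster 5 it was 0.81 (0.77 to 0.86) on day 1, 4.00 (3.80 to 4.20) on day 3, 1.08 (0.65 to 1.54) on day 5 and 2.39 (1.82 to 3.02) on day 7. The share of cells with a Chil3 UMI after thinning ran the other way in cluster 5 on day 5, with 8.47% of the diabetic and 9.38% of the control cells. On day 3, the cluster 5 cells of the diabetic group had thus 16.0 times the Chil3 of their control counterparts.

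**Figure D2:**
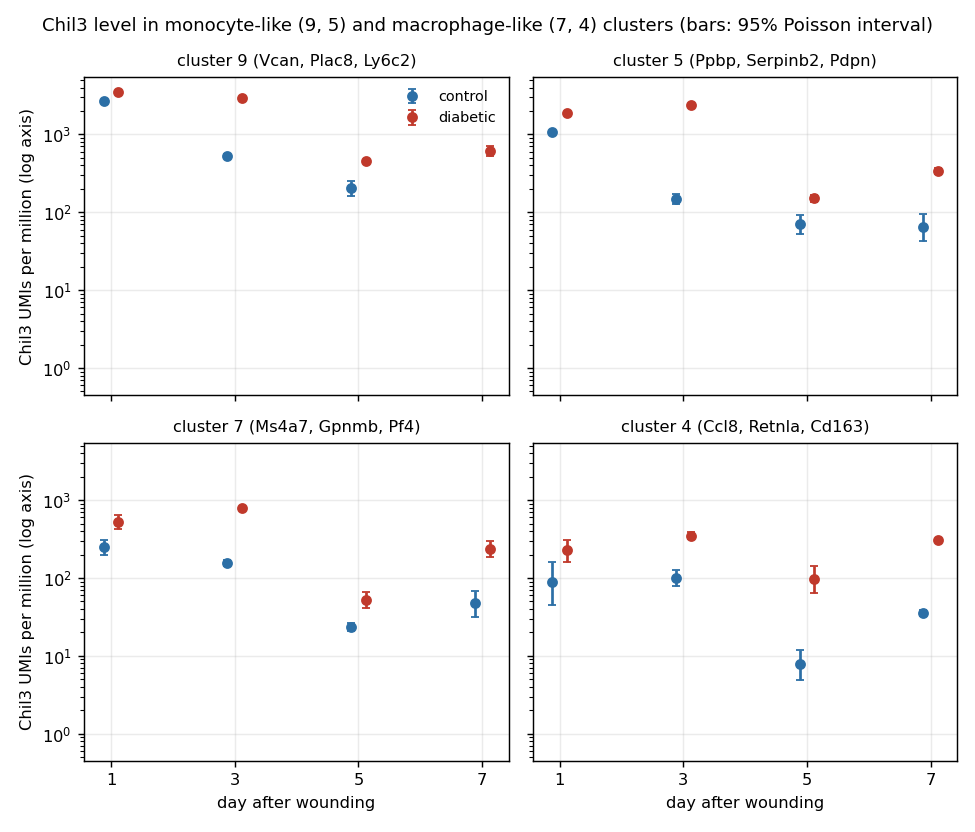
Chil3 CPM (log axis) by day in the 2 monocyte-like clusters (top) and the 2 macrophage-like clusters (bottom), with 1 point per library of at least 20 cells and bars for the 95% Poisson interval. The diabetic point (red) is above the control point (blue) in each pair, for example in cluster 5 on day 3 (2375 against 149 CPM). The diabetic point of cluster 4 on day 5 (97.1 CPM) rests on 26 UMIs, 19 of them in 1 cell.

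In macrophage-like cells Chil3 was lower than in the monocyte-like cells of the same library, and it was again higher in the diabetic group. The diabetic levels of 374, 680, 60.2 and 302 CPM on days 1, 3, 5 and 7 stood against 206, 145, 20.9 and 35.9 CPM in the control group. The log2 ratio was 0.86 (0.46 to 1.26) on day 1, 2.23 (2.11 to 2.35) on day 3, 1.52 (1.18 to 1.85) on day 5 and 3.07 (2.95 to 3.20) on day 7, when the diabetic level was 8.42 times the control level. Over the alternatives the log2 ratio of day 7 ran from 1.78 to 3.40, and that of day 5 from 1.05 to 2.72. Both groups had their lowest level on day 5 and a higher one on day 7, with a 5.02-fold step in the diabetic and a 1.71-fold step in the control group. Over 9 ways of grouping the cells, the diabetic level increased at each step in 0, was lowest on day 5 in all 9 and highest on day 3 in 8, the exception being the coarser clustering at resolution 0.4. At that resolution the class was a different set of cells. It was a cluster of 7504 cells with a median of 3174 UMIs and with Gm26917 among its leading genes. A cluster of 2921 cells with Ccl8 and Retnla among its leading genes was named fibroblast there. The lowest day 7 ratio, 1.78, also came from that clustering.

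Whether the macrophage-like level of day 1 stood above the background depended on the measure. In CPM it was 0.66 times the lymphocyte level in the diabetic library and 1.03 times in the control library, where the class held 69 and 85 cells. On the other days it was between 2.36 and 5.96 times the lymphocyte level. The lymphocyte level itself was higher in the diabetic libraries, with 566, 191, 13.3 and 51.5 CPM on days 1, 3, 5 and 7 against 200.6, 24.3, 8.86 and 10.7 CPM. On day 1 it sat in few cells: the highest 5% of lymphocyte-like cells held 72.2% and 75.0% of its UMIs in the diabetic and control library, and in the control library 1 cell held 66 of 108. Measures per cell put the control macrophage-like cells higher on that day. After thinning, 24.2% of them (14.5% to 36.4%) had a Chil3 UMI, against 7.04% (3.43% to 12.6%) of the lymphocyte-like cells, and the mean CPM over cells was 305 against 109. In the diabetic library the thinned shares were 23.2% (12.98% to 36.4%) and 17.1% (10.9% to 24.9%), with overlapping intervals, and the means 370 and 381 CPM. Clustering at resolution 0.4 put the macrophage-like level above the lymphocyte level in both libraries (1084 against 566 and 550 against 200.8 CPM). There the class was the different set of cells given above. Naming cells singly did so too (646 against 524 and 481 against 309 CPM). In each other grouping the diabetic level stayed below the lymphocyte level. It was 324 against 566 CPM at resolution 1.6, for example, and 366 against 424 CPM without the mitochondrial filter. With the lymphocyte level subtracted from both libraries, the log2 ratio of the macrophage-like cells was 2.02 on day 3, 1.96 on day 5 and 3.31 on day 7. That of the monocyte-like cells was 0.62, 2.71, 1.50 and 2.41 on days 1 to 7.

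After thinning, 23.2%, 36.9%, 5.95% and 14.8% of the diabetic macrophage-like cells had a Chil3 UMI on days 1, 3, 5 and 7, against 24.2%, 8.08%, 1.84% and 3.76% of the control cells. On day 1 these shares rest on 56 and 66 cells, and after thinning the level was lower in the diabetic library (log2 ratio -0.35). Without thinning the shares were 56.5%, 74.7%, 15.3% and 42.0% against 43.5%, 32.4%, 10.1% and 16.1%. On days 5 and 7 few cells carried the level. In diabetic libraries the highest 5% of the cells held 76.8% and 67.8% of the Chil3 UMIs on these days, against 76.0% and 61.8% for control libraries. The highest single diabetic cell had 25 of 95 UMIs on day 5 and 280 of 2053 on day 7.

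The class again held 2 clusters. Cluster 7, led by Ms4a7, Gpnmb and Pf4, had 527, 784, 52.6 and 236 CPM in the diabetic and 250, 154, 23.5 and 47.7 CPM in the control group. Cluster 4, led by Ccl8, Retnla and Cd163, had 227, 350, 97.1 and 305 CPM in the diabetic and 88.8, 101, 7.78 and 35.5 CPM in the control group. In both clusters the diabetic level was highest on day 3 and lowest on day 5. In cluster 4, which held 860 of the 908 diabetic cells of day 7, the day 7 level was above that of day 1, within counting error. Cluster 7 held most macrophage-like cells of both groups on days 3 and 5, and cluster 4 held most on day 7, so the 5.02-fold step of the diabetic class from day 5 to day 7 joins different clusters. Within cluster 7 that step was 4.49-fold. Within cluster 4 it was 3.14-fold, but the diabetic level of day 5 there rests on 26 UMIs in 62 cells, and 1 cell held 19 of them.

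RNA of other cells was followed through whole marker lists. The summed level of the 10 neutrophil markers in macrophage-like cells was 3780, 2691, 1693 and 1354 CPM in the diabetic group and 3328, 1716, 374 and 1725 CPM in the control group, all 10 being above 0 in each library. In lymphocyte-like cells it ranged from 1333 to 4856 CPM in the diabetic and from 651 to 4348 CPM in the control group. On day 5 the control library was low in both. Of the 10 markers, Retnlg alone was higher in the diabetic library on each day in macrophage-like cells. The monocyte markers summed to 4934, 3676, 4683 and 4301 CPM in diabetic and 6099, 4250, 3149 and 4170 CPM in control macrophage-like cells, and 0 of 10 was higher in the diabetic library on each day. The part of such RNA in the Chil3 difference was not tested.

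In neutrophil-like cells the direction was not the same on all days. The diabetic level was 623, 585, 37.1 and 151 CPM on days 1, 3, 5 and 7, and the control level was 162, 26.6, 53.6 and 44.7 CPM. The largest difference among the 4 myeloid classes fell here on day 3, with a log2 ratio of 4.46 (4.20 to 4.73) or 22.0-fold. Over the alternatives this ratio ran from 3.32 to 7.45, and its control level was at the lymphocyte background. On day 5 the ratio was -0.53 (-0.98 to -0.05), with 49 Chil3 UMIs in 257 control cells. On days 1 and 7 it was 1.94 (1.85 to 2.03) and 1.76 (1.53 to 1.99). The control level was at or below the lymphocyte level on day 1 (0.81 times) and close to it on day 3 (1.09 times), and the diabetic level was close to it on day 1 (1.10 times). The day 1 values turn on few lymphocyte-like cells, 1 of which held 66 of the 108 control UMIs. Per cell, the control neutrophil-like cells of day 1 were higher, with a thinned share of 12.4% against 7.04% (11.1% to 13.7% and 3.43% to 12.6%) and a mean of 152 against 109 CPM. In the diabetic library of day 1 the thinned share was 25.6% against 17.1%, and in both libraries the intervals overlap. On day 3 the diabetic level was 3.05 times the lymphocyte level, and on day 5 the control level was 6.04 times.

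Within the neutrophil-like cells, Chil3 on day 1 was higher in cluster 6 than in the other 3 clusters of the diabetic library, but lower than in those of the control library (129 CPM against 180, 158 and 234). Cluster 6 was led by Ngp, Retnlg, Lcn2 and Mmp8, which encode granule proteins of young neutrophils. It held 962 CPM on day 1 and 968 CPM on day 3 in the diabetic group, against 129 and 54.2 CPM in the control group, a log2 ratio of 2.90 (2.74 to 3.07) and of 4.16 (3.35 to 5.12). On days 5 and 7 its control libraries held 6 and 3 such cells, which is too few for a level. In the diabetic library of day 5 it had 29.0 CPM, against 63.7 CPM in cluster 1. The other clusters were not alike on day 5: the log2 ratio was -1.83 (-2.61 to -0.99) in cluster 2, led by Il23a, Il1a and Ccl3 and with 36 control cells, and 0.36 (-0.24 to 0.99) in cluster 1, with 204 control cells. The makeup of the class differed between the groups as well. Cluster 1 held 1624 of 1999 control and 1181 of 2692 diabetic cells on day 3. On day 5 it held 204 of 257 control and 600 of 1916 diabetic cells.

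Dendritic-like cells had 153, 151, 15.1 and 78.0 CPM in the diabetic and 77.8, 17.7, 2.90 and 12.4 CPM in the control group. In 7 of the 8 libraries this was below the lymphocyte level or within the counting interval around it, and only the diabetic library of day 7 stood above it (1.51 times, log2 ratio 0.60 with an interval of 0.34 to 0.85). The log2 ratio between the groups was 0.98, 3.09, 2.38 and 2.66 on days 1 to 7 in these cells, and 1.50, 2.98, 0.59 and 2.27 in the lymphocyte-like cells. With the unnamed cluster counted in, the dendritic-like ratio was 0.65 on day 5 and 0.47 on day 7. After thinning, 15.7%, 14.0%, 2.02% and 5.10% of the diabetic and 10.2%, 1.30%, 1.12% and 1.25% of the control dendritic-like cells had a Chil3 UMI. These shares were above those of the lymphocyte-like cells on diabetic days 5 and 7 and control days 1, 5 and 7. They were below them on diabetic days 1 and 3 and control day 3, and the intervals overlapped in each library. Osteoclast-like cells, named only from the RNA of osteoclast markers such as Ctsk and Acp5, had 49.8, 5.78 and 12.5 CPM in the control group on days 3, 5 and 7. In the diabetic group they had 213 CPM on day 3. Of these levels only that of control day 3 stood above the lymphocyte level (2.05 times). The others were at 0.65 and 1.17 times on control days 5 and 7 and at 1.11 times on diabetic day 3, within counting error.

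**Figure D3:**
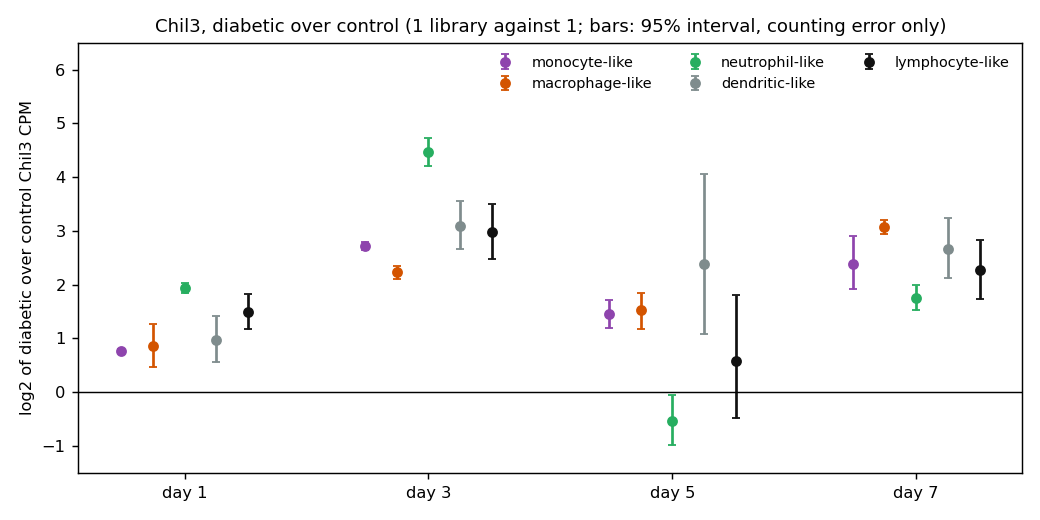
Log2 of the Chil3 CPM of the diabetic over the control library (vertical axis) on each day for 5 classes of cells, with bars for the exact 95% interval of counting error. Values lie above 0 in each class and day except neutrophil-like cells on day 5 (-0.53), and the interval of lymphocyte-like cells on day 5 spans 0.

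The cells that carried the Chil3 of a wound changed with time. On day 1 monocyte-like cells held 88.9% of the Chil3 UMIs of the control and 80.3% of those of the diabetic library. On day 3 they held 57.7% and 63.7%. On day 5 the groups parted: monocyte-like cells held 20.6% in the control and 79.2% in the diabetic library, and macrophage-like cells held 56.5% and 4.03%. On day 7 macrophage-like cells held close to the same share in both, 48.2% in the control and 49.1% in the diabetic library.

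These shares follow the number of cells as well as their level. Monocyte-like cells were 25.9%, 10.3%, 2.84% and 1.14% of the control cells on days 1, 3, 5 and 7 and 28.7%, 13.6%, 14.1% and 5.55% of the diabetic cells. Over all cells of a library, Chil3 was at 818, 134, 21.8 and 41.5 CPM in the control and at 1517, 1031, 110 and 194 CPM in the diabetic group. The unnamed cluster held 25.8% of the Chil3 UMIs of the control library of day 7. There, its level was 238 CPM, above the 73.2 CPM of the monocyte-like cells. In the diabetic library of day 7 it was 412 against 385 CPM, with overlapping intervals. The barcodes removed by the filter held between 0.291% and 0.774% of the Chil3 UMIs of a library.

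**Figure D4:**
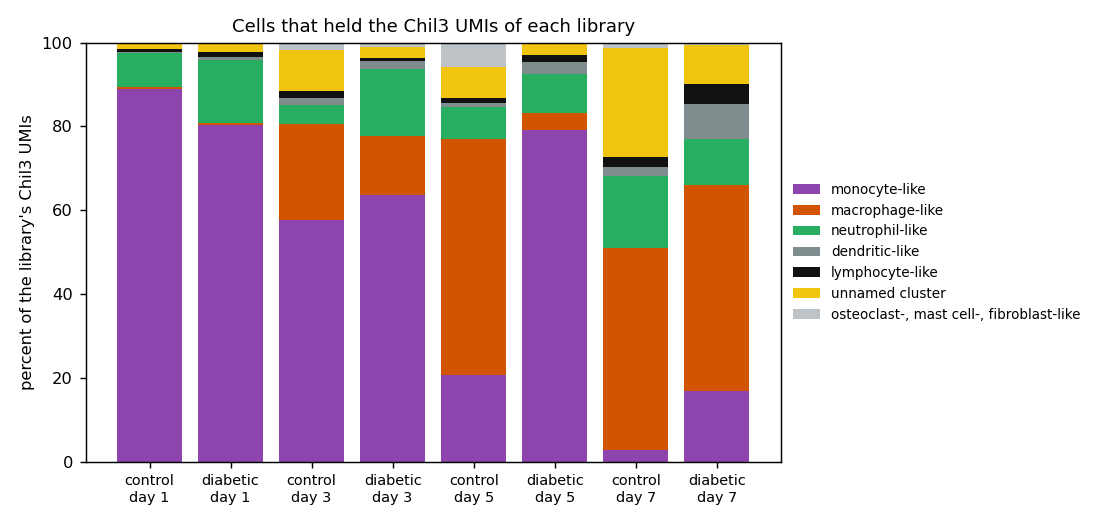
Percent of the Chil3 UMIs of each library (stacked bars, 0 to 100%) held by each class of cells, with control beside diabetic for each day. Monocyte-like cells (purple) hold most on days 1 and 3 in both groups and on day 5 in the diabetic library alone, and macrophage-like cells (orange) hold 48.2% and 49.1% on day 7.

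Of the other members of the chitinase family, Chil1 had the most UMIs in each library but the control library of day 5 (353, against 961 of Ctbs). They sat mostly in neutrophil-like cells. Chil1 (also called BRP-39) is a chitinase-like protein of neutrophils and macrophages. In neutrophil-like cells it had 719, 525, 572 and 283 CPM in the diabetic and 699, 278, 292 and 111 CPM in the control group. In monocyte-like cells it was at 36.9, 32.4, 26.9 and 14.1 CPM against 40.4, 9.41, 2.71 and 3.75 CPM. Its edgeR fit gave a log2 difference of 1.21 (SE 0.41, adjusted p = 0.51) in monocyte-like cells and of 1.50 (SE 0.56, adjusted p = 0.515) in macrophage-like cells. Ctbs, a lysosomal enzyme that splits chitobiose, and Chid1, a protein with a chitinase-like domain, had between 293 and 961 and between 59 and 277 UMIs in a library. Ovgp1 had between 31 and 77 UMIs. The remaining relatives were close to 0, with at most 4 UMIs of the true chitinases Chia1 and Chit1, 10 of Chil5 and 2 of Chil6 in a library.

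To place Chil3 among other genes, diabetic and control libraries were compared over the 4 days with edgeR's quasi-likelihood test on summed UMIs, with the day as a block. Few genes passed an adjusted p of 0.05. In macrophage-like cells there were 2 genes higher in the diabetic group (0.0182% of 10973 tested) and 1 lower (0.00911%), with 922 at an unadjusted p under 0.05, and DESeq2 gave 37 higher and 5 lower. The fit covers all genes and so holds Chil3, which is 1 of the 2. Since Chil3 was chosen from these same counts, that is no test of it, and nothing is read from it. The others were Lcn2 and, as the lower one, the immunoglobulin gene Igha. In monocyte-like cells 0 genes were higher and 0 lower (0% of 10335), with 823 at an unadjusted p under 0.05 and 18 higher and 3 lower by DESeq2. In neutrophil-like cells 0 were higher (0%) and 2 lower (0.0186% of 10748), the immunoglobulin genes Igha and Ighg2b. In dendritic-like cells 0 were higher (0%) and 1 lower (0.01% of 9954), again Igha. At an unadjusted p under 0.05 there were 884 genes in neutrophil-like and 599 in dendritic-like cells, and DESeq2 gave 33 and 7 genes higher in the diabetic group.

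The fitted log2 difference of Chil3 was among the largest of all genes, which is no test of a gene chosen from these same counts. It was exceeded by 15 genes in macrophage-like, 21 in monocyte-like, 6 in neutrophil-like and 2 in dendritic-like cells. A higher level in the diabetic library on each of the 4 days is not rare. It was found for 7.90% of the genes tested in macrophage-like, 7.43% in monocyte-like, 7.07% in neutrophil-like and 8.78% in dendritic-like cells. Chil3 met it in all of these but the neutrophil-like cells, and since the gene was chosen from these same counts, nothing is read from that.

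Of the pathway of type 2 activation, for which Chil3 is a standard marker, no listed gene passed the test in either class. Its ligands were sparse: Il4 and Il13 had too few UMIs to be tested, and of the list only Csf1, Il33 and Tslp could be tested in macrophage-like cells and Csf1 and Csf2 in monocyte-like cells. Of the receptors and signalling genes, 0 of 12 passed the test in macrophage-like and 0 of 12 in monocyte-like cells. Il4ra, the receptor chain that IL-4 and IL-13 share, had 344, 217, 196 and 255 CPM in diabetic and 283, 173, 158 and 210 CPM in control macrophage-like cells, a log2 difference of 0.31 (SE 0.11, adjusted p = 0.478). Stat6 had a log2 difference of 0.32 (SE 0.14, adjusted p = 0.571) there. In macrophage-like cells 6 of these 12 genes were higher in the diabetic library on each day (7.90% of all genes tested were), and in monocyte-like cells 2 of 12 (7.43%). Of the transcription factors that act with Stat6, 0 of 8 passed in either class.

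The other target genes of IL-4 were compared in the same way. In macrophage-like cells 0 of 19 tested targets passed, and their median log2 difference was 0.47 against -0.01 over all genes. Of the 19, 3 were higher in the diabetic library on each day, against 7.90% of all genes tested. Retnla, a secreted protein that often marks the same macrophages as Chil3, had 294, 84.7, 11.4 and 354 CPM in the diabetic and 384, 22.1, 452 and 163 CPM in the control group, with a log2 difference of -0.11 (SE 0.795, adjusted p = 0.993). On days 1 and 5 its order was opposite to that of Chil3. Mrc1, the mannose receptor, had 2724, 1399, 1142 and 1737 CPM against 2168, 1070, 1505 and 1447 CPM. The chemokine gene Ccl22 was higher in the diabetic library on each day, with 17.8, 22.6, 31.7 and 54.4 CPM against 2.19, 15.6, 21.9 and 15.7 CPM, and its log2 difference was 1.08 (SE 0.27, adjusted p = 0.286). In monocyte-like cells 0 of 18 targets passed, with a median of -0.11 and with 0 higher on each day, against 7.43% of all genes tested.

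Genes of classical monocytes, the cells with the most Chil3, were compared next. In monocyte-like cells 0 of 20 passed, and 1 was higher in the diabetic library on each day (7.43% of all genes tested were). That gene was Vcan, a matrix proteoglycan, with 1139, 471, 533 and 524 CPM in the diabetic and 1029, 333, 222 and 353 CPM in the control group and a log2 difference of 0.65 (SE 0.16, adjusted p = 0.377). Ly6c2 had 1073, 440, 752 and 341 CPM against 1129, 1371, 348 and 173 CPM, and Plac8 had 943, 610, 903 and 275 CPM against 864, 2320, 267 and 315 CPM. On day 3, when Chil3 was 6.62 times higher in the diabetic monocyte-like cells, both of these were lower there than in the control cells. Both genes lead cluster 9, which on that day held 322 of 495 control but 255 of 740 diabetic cells of the class. Of the nonclassical monocyte genes, 0 of 10 passed and 0 were higher on each day. Of the macrophage maturation genes, 0 of 18 passed in monocyte-like cells, with a median log2 difference of -0.36, and 0 were higher on each day.

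Granule genes included the only listed gene to pass. Lcn2, the iron-sequestering protein lipocalin 2, rose in diabetic macrophage-like cells, with 320, 112, 77.3 and 97.9 CPM against 112, 22.8, 6.70 and 41.4 CPM, a log2 difference of 2.11 (SE 0.295, adjusted p = 0.0448, higher on 4 of 4 days). The groups overlap in these values, since the control level of day 1 is above the diabetic levels of days 5 and 7, and the diabetic level is the higher one on each day. The call was lost when day 1 or day 3 was left out, without the day term and with cells named singly. Neutrophil markers moved in the same direction on days 1, 3 and 5: their sum in these cells, given above, was 3780, 2691 and 1693 CPM against 3328, 1716 and 374 CPM, but 1354 against 1725 CPM on day 7. Their part in the Lcn2 difference was not tested. Of the 15 granule genes tested in macrophage-like cells, 14 did not pass, and the median was 0.70. Their median in monocyte-like cells was 0.27, with 0 of 15 past the threshold. Elane, Mpo and Ctsg, the proteases and peroxidase of granule-forming progenitors, had too few UMIs to be tested in either class.

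Inflammatory genes came next. In monocyte-like cells 0 of 18 passed, the median log2 difference was 0.54 against 0.00 over all genes, and 10 of 18 were higher in the diabetic library on each day, against 7.43% of all genes tested. Slpi, an inhibitor of neutrophil elastase, came closest to the threshold, with 3898, 1611, 1269 and 1580 CPM in the diabetic and 2791, 673, 612 and 516 CPM in the control group and a log2 difference of 1.13 (SE 0.17, adjusted p = 0.0838). Saa3, an acute phase protein, had 857, 606, 66.5 and 135 CPM against 543, 99.1, 17.2 and 114 CPM. Like Chil3, it was high in the diabetic library of day 3 and low in that of day 5. Il1b, the cytokine interleukin-1 beta, had 5730, 4872, 5428 and 7087 CPM against 3676, 2775, 3844 and 6730 CPM. The neutrophil markers in these cells were higher in the diabetic library on days 1, 3 and 5 too (3764, 2837 and 1970 against 3640, 1870 and 671 CPM) but not on day 7, and their part in these differences was not tested.

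In macrophage-like cells 6 of the 18 inflammatory genes were higher on each day (7.90% of all genes tested were), the median was 0.53, and 0 passed. The study itself named Chil3 with other genes of one branch of its trajectory, a list chosen on these same samples. Of the 10 others, 7 were higher in the diabetic library on each day in monocyte-like and 5 in macrophage-like cells. Among all genes tested the shares were 7.43% and 7.90%. Of these 10 genes, 0 passed in either class. Acod1, the enzyme that makes itaconate, was one of them, with 1392, 1125, 520 and 910 CPM against 956, 238, 311 and 503 CPM in monocyte-like cells and a log2 difference of 1.13 (SE 0.24, adjusted p = 0.311).

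Across the 8 libraries, the genes whose level in macrophage-like cells was most like that of Chil3 were Kif2a, Smndc1, Oasl1, Peli1 and S100a4, with a Pearson r of log2(CPM + 20) between 0.91 and 0.93. These were the first 5 of 7289 genes with at least 50 UMIs in at least 4 libraries, and only 0.0823% of the genes had an r over 0.9. The libraries differ in depth and makeup, all genes share these differences, and 8 points are few, so the likeness is a description. Oasl1, an interferon-induced gene, had 406, 351, 155 and 288 CPM in the diabetic group and 224, 171, 126 and 168 CPM in the control group, so that its lowest level also fell on day 5. S100a4, a calcium-binding protein of migrating myeloid cells, had 929, 917, 615 and 747 CPM against 802, 757, 655 and 587 CPM. The range of these genes was small beside the range of Chil3. Kif2a, a motor protein of microtubules, varied only from 55.2 to 75.2 CPM. With 1 CPM added in place of 20, 4 of the 5 remained, and Marcksl1 took the place of S100a4.

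Within monocyte-like cells, no gene followed Chil3 closely from cell to cell. Cells were thinned to 1000 UMIs, and the Pearson r with Chil3 was taken in each of the 6 libraries with at least 100 such cells. Of 2258 genes compared, 0 had a median r over 0.2, and the median over all genes was 0.00. In counts this sparse such values are weak, so they are given as a description only. The highest were Plac8 at 0.20 (0.04 to 0.27 over the libraries), Vcan at 0.18 (0.09 to 0.26), Lyz2 at 0.17 (-0.12 to 0.26), Hp at 0.17 (0.07 to 0.22) and Thbs1 at 0.16 (0.11 to 0.25). Also among the 10 highest were Ly6c2, Ifitm6, Ifitm2 and F10. Of the 10 genes, 9 had an r above 0 in each of the 6 libraries, the exception being Lyz2, the lysozyme gene, at -0.12 in the diabetic library of day 3.

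These are mainly genes of classical monocytes. Hp encodes haptoglobin, which binds free haemoglobin. Of the 18 classical monocyte genes that could be compared, 7 had a median r over 0.1, against 0.576% of all genes. Each r was taken over both clusters of the class together. Cluster 9, led by Vcan, Plac8 and Ly6c2, had the higher Chil3 level, and these genes are also among the markers that named the class. The part of that difference between clusters in the r values was not tested. The lowest were Cd74 at -0.17, H2-Ab1 at -0.16, H2-Aa at -0.16, H2-Eb1 at -0.15 and Emp1 at -0.13. The first 4 encode the class II antigen presentation machinery, and each of these 4 was below 0 in all 6 libraries. In unthinned counts their medians lay closer to 0, between -0.03 and 0.00. Of the IL-4 target genes 5 could be compared, with 0 over 0.1 and 2 under -0.1 (0.886% of all genes are), among them Cd36, a scavenger receptor, at -0.10. Of the 14 inflammatory genes compared, 0 were over 0.1 (0.576% of all genes are) and 3 under -0.1 (0.886%), among them Cxcl1 at -0.12 and Tnf at -0.10. The third was Cxcl3. In unthinned, log-normalised counts these 3 were at 0.10, 0.01 and 0.04, so their direction depends on how the counts were treated. The ranking by Spearman's rho kept 9 of the 10 highest genes, and the ranking of unthinned, log-normalised counts kept 2. In the unthinned ranking Cxcl2, Clec4e and Il1b held ranks 2, 3 and 4, with a median r of 0.13, 0.13 and 0.12. After thinning their medians were -0.06, 0.07 and 0.05.

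**Figure D5:**
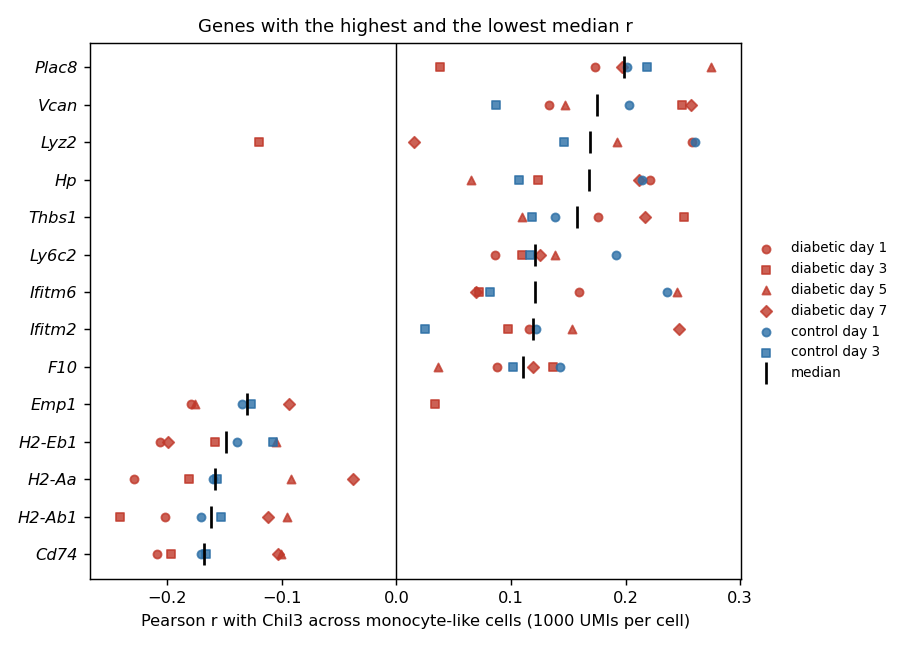
Pearson r with Chil3 across monocyte-like cells thinned to 1000 UMIs (horizontal axis) for 9 of the 10 genes with the highest and the 5 with the lowest median r, with 1 point per library and a bar for the median. Plac8 has the highest median, just under 0.2, and the class II genes lie below 0 in all 6 libraries.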

How the data were processed

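The deposited tables of the authors hold raw counts of UMIs, with genes in rows and cells in columns, 1 table for each of 8 libraries. Per the labels, reads were trimmed with fastp 0.20.1. The study's methods add UMI-tools and STAR with an Ensembl annotation of GRCm38, whereas the labels name mm9, and the platform is BD Rhapsody in the methods but 10X Genomics in the series record. Cells carry running names, so barcodes that libraries share could not be counted. Gene positions are from an annotation of GRCm38.

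Cells needed more than 200 genes and less than 20% mitochondrial UMIs, which left 35215 cells of 38959 barcodes. Mitochondrial genes were dropped after this. For clustering, each cell was set to a sum of 10000, the values were log transformed, and total UMIs were regressed out. With scanpy 1.11.5 and leidenalg 0.10.2, 2000 variable genes without Chil3, 10 principal components, 30 neighbours and a resolution of 0.8 gave the clusters. Each was named for the marker list with the highest mean log2 fold, if this was at least 0.25 (20 CPM added) with 3 markers detected. Scrublet called 105 cells (0.298%), too few to have worked, so doublets were kept.

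A level is the summed Chil3 UMIs over the summed UMIs of a class. Intervals are exact and cover 95% (Poisson for levels, conditional Poisson for ratios), and ratios needed 20 cells in each library. Other genes were tested with edgeR 4.0.16 in R 4.3.3 (TMM, filterByExpr, quasi-likelihood test, day as a block, Benjamini-Hochberg adjusted p of 0.05), and with DESeq2 1.42.0 as an alternative. Days stand in for replicates in these p-values. A simulated data set held 200 genes with a log2 difference of 2. Of these, edgeR recovered 96% in macrophage-like and 95% in monocyte-like sums. Recovery of smaller differences, or of differences that vary between days, was not tested. A gene that did not pass may still differ.

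Chil3, the gene lists and the tests were chosen with earlier results of these data known. The genes named are Chil3 and its family, list members that passed edgeR with up to 4 more of each list by their role, the 5 genes most like Chil3 over libraries, the 10 highest and 5 lowest in co-expression, and genes that lead a cluster; some that the rule takes in are not reported here. Cxcl2, Cxcl3, Clec4e and the immunoglobulin genes were named after their values were seen, and the comparison with lymphocyte-like cells was added then too.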

Additional observations from a re-analysis of the deposited data

Results flagged for a closer look

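In neutrophil-like cells, the difference between diabetic and control libraries on day 5 ran against the other days, with a log2 ratio of -0.53 where days 1, 3 and 7 gave 1.94, 4.46 and 1.76. Whether day 5 differs from the other days was not tested, since each day has 1 library per group.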

How the results depend on the processing

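Ratios are given as log2 of diabetic over control Chil3. They stayed above 0 in all 52 alternatives for monocyte-like and all 48 for dendritic-like cells and in 50 of 51 for macrophage-like cells, and in 39 of 51 for neutrophil-like cells, where day 5 ranged from -0.91 to 0.01 and turned to 0.0083 with the unnamed cluster counted in. In macrophage-like cells the ratio of day 1 turned to -0.35 after thinning to 1000 UMIs. Thinning gave 2.78, 2.72 and 2.79 for days 3, 5 and 7 there and 0.70, 2.64, 1.06 and 1.52 for days 1 to 7 in monocyte-like cells. The mean over cells gave 0.28, 2.58, 2.0 and 2.68 in macrophage-like cells, and 0.71 and 1.07 on days 1 and 5 in monocyte-like cells. With cells named singly, macrophage-like cells had 0.43, 2.90 and 3.29 on days 1, 3 and 7, and monocyte-like cells 3.05, 0.85 and 1.31 on days 3, 5 and 7. A resolution of 0.4 gave macrophage-like cells 2.41 on day 3 and 1.78 on day 7, and 1.6 gave 1.05 on day 5. At 0.4 the class was a different set of cells, as given above. With Chil3 kept for clustering, macrophage-like cells had 1.99 on day 3 and 3.24 on day 7, and monocyte-like cells 1.81 on day 7. Without the regression, macrophage-like cells had 2.71 on day 7 and monocyte-like cells 2.64, 0.97 and 1.62 on days 3, 5 and 7. With called doublets removed, macrophage-like cells had 2.64 on day 7 and monocyte-like cells 2.80 and 1.83 on days 3 and 7. With at least 500 genes per cell, macrophage-like cells had 0.0060 on day 1 and 3.28 on day 7, and monocyte-like cells 1.62 on day 7. Without the mitochondrial filter, macrophage-like cells had 1.10 and 3.40 on days 5 and 7, and monocyte-like cells 2.65, 1.83 and 1.46 on days 3, 5 and 7. The cause of these shifts was not tested.

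The next alternatives were chosen after seeing the data. Subtracting the lymphocyte level gave 2.02, 1.96 and 3.31 on days 3, 5 and 7 in macrophage-like cells and 0.62 on day 1 in monocyte-like cells. It gave no value where a class was at or below that level. Leaving out the highest 5% of doublet scores gave 3.21 on day 7 in macrophage-like and 2.60 on day 3 in monocyte-like cells. Counting the unnamed cluster with the class gave 2.63 on day 7 in macrophage-like and 2.90, 2.03 and 1.02 on days 3, 5 and 7 in monocyte-like cells. In dendritic-like cells it gave 2.03, 0.65 and 0.47 on days 3, 5 and 7, and subtracting the lymphocyte level gave 3.99 on day 7. In neutrophil-like cells the ratio of day 3 ranged from 3.32 to 7.45, the highest after that subtraction.

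The number of genes called by edgeR moved far. It was 3, 0, 2 and 1 in macrophage-, monocyte-, neutrophil- and dendritic-like cells, and 172, 166, 108 and 116 with no filter on low counts. DESeq2 called 42, 21, 37 and 13. With no day term it was 0 in each class, and with cells named singly it was 8 in neutrophil-like and 0 in dendritic-like cells. Leaving out a day gave 1 to 18, 0 to 11, 0 to 4 and 1 to 4. The highest macrophage-like count came without day 5 and the lowest without day 1. The control library of day 7 held 53 monocyte-like cells and the diabetic library of day 1 held 69 macrophage-like cells, which widens the intervals of these ratios.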
